A study of Mus musculus with 4 samples.

Results

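The 10 genes examined here, of 19840 in the deposited table, supply naive mouse embryonic stem cells with amino acids. They are 8 transporters of the plasma membrane (Slc7a1, Slc7a3, Slc7a5, Slc3a2, Slc1a4, Slc1a5, Slc38a2 and Slc6a9) and 2 enzymes (Asns and Pck2). They were grouped by function with earlier results of these data known, so that the shares of all genes given below describe the group and lend it no independent support. Rows were found by the Ensembl identifier of each symbol, and all 10 had a row and an adjusted p. The cells, in 2i/LIF medium that holds the ground state, received a lentivirus with a hairpin against Lncenc1 (shLincenc1) or a control hairpin (shCtrl), followed by 2 days of puromycin. Each of the 2 groups has 2 libraries of RNA without ribosomal RNA. The protocols mention 2 lines, E14TG2a and R1, and 2 hairpins for every target, and no label ties a library to a line or a hairpin. Nothing in the labels says that libraries of a group are separate cultures, so the spread behind the p-values may be technical.

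The table holds 1 comparison and does not say which group is its numerator, so the groups are named by Lncenc1. Lncenc1 itself had 2126 and 2121 normalized reads in the Lncenc1-low libraries (L1 and L2), against 6400 and 7250 in the Lncenc1-high libraries (H1 and H2). Its log2 fold change in the authors' deposited table is 1.68 ± 0.19 (SE), so every fold change below is Lncenc1-high over Lncenc1-low, and a positive one means less RNA in the Lncenc1-low group. The Lncenc1-low libraries are taken to be shLincenc1, on the assumption that the hairpin worked, so Lncenc1 is no check of the labels. Reads per library, recovered from the deposited means, summed to 11338771 in L1, 10698407 in L2, 26839433 in H1 and 11120881 in H2. All 10 markers of naive stem cells were tested and 0 were called by DESeq2 in the authors' deposited table, beside 1.53% of all tested genes. At an unadjusted p under 0.05, 2 were lower and 1 higher in the Lncenc1-low group, beside 3.54% and 5.28% of all tested genes. The 2 lower markers, Tbx3 and Nanog, were named after their values were seen. Of the 10 markers, 9 had a positive log2 fold change, beside 49.4% of tested genes, and the median was 0.30. Both Lncenc1-high libraries lay above both Lncenc1-low libraries for 8 of the 10, beside 20.6% of tested genes. All 10 markers together summed to 62761 and 59001 normalized reads in L1 and L2 against 73650 and 69603 in H1 and H2. The 1 higher marker, Dppa3, named after its values were seen, had 148 and 397 normalized reads in L1 and L2 against 141 and 135 in H1 and H2. Of 10 fibroblast markers, which would reveal feeder cells, 6 had a row and 4 were tested. Of these 4, 0 were called, beside 1.53% of all tested genes. At an unadjusted p under 0.05, 1 was higher in the Lncenc1-low group, beside 5.28% of all tested genes. The 6 summed to 392 and 308 normalized reads in L1 and L2 against 229 and 194 in H1 and H2. Fbn1, named after its values were seen, carried most of these reads. Without it the other 5 summed to 67.8 and 133 in L1 and L2 against 89.3 and 84.1 in H1 and H2, so that the groups overlap. Genes among these 5 are also named after their values were seen. Thy1 had 40.7 and 18.5 normalized reads in L1 and L2 against 10.3 and 12.5 in H1 and H2, without overlap. The groups overlap for Col1a1, Col1a2, Col3a1 and Pdgfrb. Col3a1 had 2.46 and 0 normalized reads in L1 and L2 against 2.05 and 0 in H1 and H2. Pdgfrb had 17.3 and 85.3 normalized reads in L1 and L2 against 68.3 and 57.7 in H1 and H2. The sum of the naive markers moved with the groups, as did Fbn1 and Thy1, and their part in the results below was not tested.

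Amino acids enter cells through carriers of the solute carrier (SLC) families, each of which takes a class of substrates. When amino acids run short, the kinase GCN2 phosphorylates the initiation factor eIF2, translation of the transcription factor ATF4 increases, and ATF4 raises transcription of transporters and of enzymes such as asparagine synthetase. The same carriers feed mTORC1, the kinase complex that couples amino acid supply to growth.

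All 10 genes had less RNA on average in the Lncenc1-low group, and 3 of them, the arginine and lysine transporter Slc7a1, the neutral amino acid transporter Slc38a2 and the mitochondrial enzyme gene Pck2, fell at a DESeq2 adjusted p under 0.05 in the authors' deposited table. Among all 14070 tested genes 0.505% were called in this direction, 1.02% in the other and 1.53% in either. The other 7 genes did not pass, and 3 of those (Slc1a5, Slc3a2 and Asns) had an unadjusted p under 0.05, so that 6 of 10 did in all, against 3.54% of tested genes in this direction. Both Lncenc1-high libraries lay above both Lncenc1-low libraries for 8 of 10, which held for 20.6% of tested genes. The log2 fold changes of the 10 lie between 0.43 and 1.35 in the authors' deposited table, with a median of 0.74, and the median over all tested genes is -0.0054. A positive fold change was found for 49.4% of tested genes. In total RNA, fewer cells that express a gene and less of its RNA per cell cannot be told apart.

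**Figure D1:**
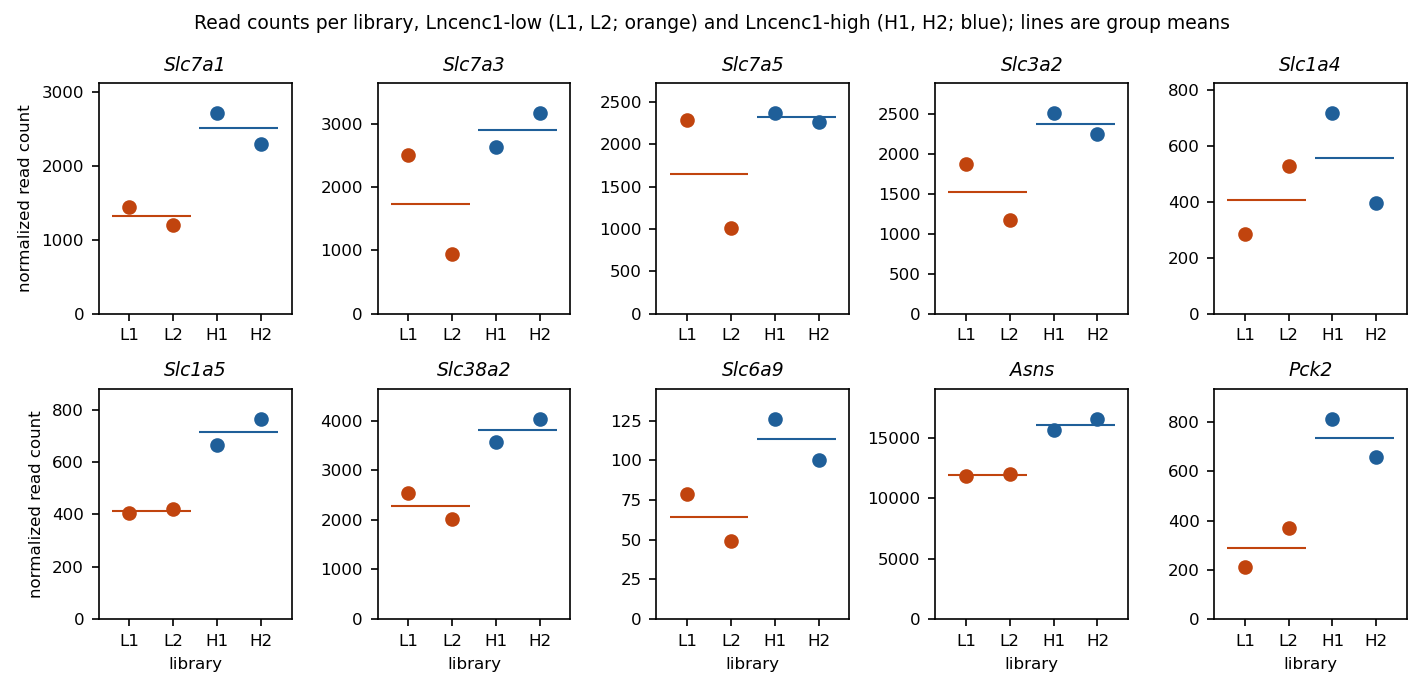
Normalized read count of each of the 10 genes in every library, with Lncenc1-low libraries L1 and L2 in orange, Lncenc1-high libraries H1 and H2 in blue, and lines at the group means (2 libraries each); every axis starts at 0. The colours are apart in 8 panels and overlap for Slc7a5 and Slc1a4.

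The cationic amino acid transporters take up arginine, lysine and ornithine. Slc7a1, the widely expressed one of them (CAT1), had 1448 and 1200 normalized reads in L1 and L2, against 2715 and 2302 in H1 and H2. The groups do not overlap, and the Lncenc1-low mean was 52.8% of the Lncenc1-high mean. The log2 fold change of Slc7a1 (ENSMUSG00000041313.13) in the authors' deposited table is 0.92 ± 0.21 (SE), with a DESeq2 adjusted p of 0.00282. In refits without 1 library Slc7a1 had 0.79 without L2, 0.80 without H1, 1.06 without L1 and 1.04 without H2. The call was lost without L2 and without H1, which can come from fewer libraries alone.

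Slc7a3 (CAT3), its paralog, divided the Lncenc1-low libraries. It had 2516 and 943 normalized reads in L1 and L2, against 2631 and 3175 in H1 and H2. L1 was thus close to the Lncenc1-high libraries and 2.67 times as high as L2. The log2 fold change in the authors' deposited table, 0.75 ± 0.68 (SE), has the largest error of the 10, with a 95% interval from -0.59 to 2.08 and a DESeq2 adjusted p of 0.941. Without L2 the refitted value was 0.21, and without L1 it was 1.62. Per kilobase of transcript, Slc7a3 stood 4.54 times as high as Slc7a1 in L1 and 2.05 times in L2, against 2.53 and 3.60 times in H1 and H2.

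Slc7a5 (LAT1) and Slc3a2 (the heavy chain, CD98) form one exchanger, in which the light chain carries large neutral amino acids such as leucine and the heavy chain brings it to the membrane. Slc7a5 had 2283 and 1013 normalized reads in L1 and L2, against 2371 and 2269 in H1 and H2. L1 lay between the Lncenc1-high libraries, so the groups overlap and L2 alone was low. Slc3a2 had 1882 and 1178 normalized reads in L1 and L2, against 2515 and 2252 in H1 and H2, without overlap but again lowest in L2. The authors' deposited table gives log2 fold changes of 0.49 ± 0.30 (SE) for Slc7a5 and 0.64 ± 0.24 (SE) for Slc3a2, with DESeq2 adjusted p of 0.729 and 0.236. Without L2 the refitted fold changes were 0.023 for Slc7a5 and 0.34 for Slc3a2, and without L1 they were 1.20 and 1.02 (adjusted p = 0.0718 and 0.0503). The ratio of light to heavy chain RNA per kilobase was 0.628 in L1 and 0.445 in L2, against 0.488 in H1 and 0.521 in H2, so the Lncenc1-high values lie within the range of the Lncenc1-low ones.

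The paralogs Slc1a5 and Slc1a4 exchange neutral amino acids, glutamine being a main substrate of Slc1a5 (ASCT2) and serine, alanine and cysteine of Slc1a4 (ASCT1). Slc1a5 had 407 and 420 normalized reads in L1 and L2, against 666 and 765 in H1 and H2. The libraries of each group were close and the groups well apart. Its log2 fold change in the authors' deposited table is 0.79 ± 0.25 (SE), with a 95% interval from 0.30 to 1.28 and a DESeq2 adjusted p of 0.0805, which did not pass. At an adjusted p under 0.1, reached in this direction by 0.718% of tested genes, it joins the 3 called genes to make 4. Refits without 1 library gave 0.69 to 0.89. Slc1a4 showed no such separation, with 283 and 526 normalized reads in L1 and L2, against 717 and 394 in H1 and H2. Here L2 exceeded H2, and the log2 fold change in the authors' deposited table is 0.46 ± 0.36 (SE), with a 95% interval from -0.24 to 1.16 (DESeq2 adjusted p = 0.871). Without H1 the refitted value was -0.040.

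Slc38a2 (SNAT2) is a sodium-coupled carrier of small neutral amino acids whose RNA is known to increase when amino acids are withdrawn. It had 2544 and 2024 normalized reads in L1 and L2, against 3571 and 4041 in H1 and H2, without overlap. The Lncenc1-low mean was 60.0% of the Lncenc1-high mean. The log2 fold change of Slc38a2 (ENSMUSG00000022462.6) in the authors' deposited table is 0.74 ± 0.20 (SE), with a DESeq2 adjusted p of 0.0284. The refit kept the call without L1 (0.91, adjusted p = 0.0275) and lost it without L2 (0.58, adjusted p = 0.625), without H1 (0.82, adjusted p = 0.127) and without H2 (0.64, adjusted p = 0.416).

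Slc6a9 (GLYT1), the glycine transporter, was the least abundant of the 10. It had 78.9 and 49.4 normalized reads in L1 and L2, against 126 and 100.4 in H1 and H2, which rest on 64, 40, 246 and 80 reads. The groups do not overlap, yet the log2 fold change in the authors' deposited table, 0.83 ± 0.50 (SE), did not pass (DESeq2 adjusted p = 0.730, 95% interval from -0.16 to 1.81).

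Asns, which makes asparagine from aspartate and glutamine, was by far the most abundant. It had 11848 and 12058 normalized reads in L1 and L2, against 15647 and 16622 in H1 and H2. Its log2 fold change in the authors' deposited table, 0.43 ± 0.17 (SE), is the smallest of the 10, with a 95% interval from 0.093 to 0.77 and a DESeq2 adjusted p of 0.288. Refits without 1 library stayed between 0.39 and 0.48, the narrowest range of the 10.

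Pck2, the mitochondrial phosphoenolpyruvate carboxykinase, turns oxaloacetate into phosphoenolpyruvate and so links mitochondrial carbon, including that of glutamine, to serine synthesis. It had 209 and 370 normalized reads in L1 and L2, against 814 and 657 in H1 and H2. The difference was the largest of the 10, with a Lncenc1-low mean at 39.4% of the Lncenc1-high mean. The log2 fold change of Pck2 (ENSMUSG00000040618.6) in the authors' deposited table is 1.35 ± 0.31 (SE), with a DESeq2 adjusted p of 0.00296. It stayed called without L2 (1.81, adjusted p = 0.00207) and without H2 (1.49, adjusted p = 0.0176), and not without L1 (0.99, adjusted p = 0.216) or without H1 (1.18, adjusted p = 0.182). Pck1, the cytosolic form, had 2 reads in L1 and 0 in L2, against 0 in H1 and 1 in H2, too few to test.

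**Figure D2:**
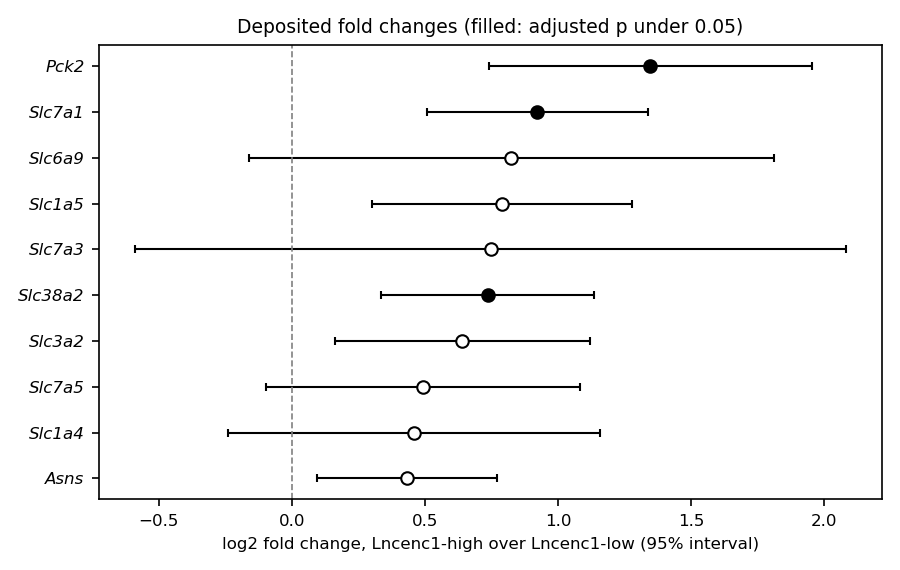
Deposited log2 fold change (Lncenc1-high over Lncenc1-low) of each gene with its 95% interval, ordered by size; filled circles have an adjusted p under 0.05. Pck2, Slc7a1 and Slc38a2 are filled, and the intervals of Slc6a9, Slc7a3, Slc7a5 and Slc1a4 include 0.

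The 10 genes did not share 1 pattern among the libraries. Of the 10, 6 were lowest in L2 (Slc7a1, Slc7a3, Slc7a5, Slc3a2, Slc38a2 and Slc6a9) and 4 were lowest in L1 (Slc1a4, Slc1a5, Asns and Pck2), with L1 and L2 close to each other for Slc1a5 and Asns. The highest value fell in H1 for 6 and in H2 for 4. Slc7a3 and Slc7a5 were 2.67 and 2.25 times as high in L1 as in L2, while Slc1a4 and Pck2 were 0.538 and 0.567 times as high. A refit called 2 of the 10 without L1, 1 without L2, 0 without H1 (5 at an unadjusted p under 0.05, beside 2.22% of all refitted genes in this direction) and 2 without H2. Over all refitted genes the shares called in this direction were 0.591% without L1, 0.114% without L2, 0.128% without H1 and 0.164% without H2. Limma voom on the recovered reads called 0 of the 10, with 7 at an unadjusted p under 0.05, beside 4.6% of all genes in this direction, and adjusted p from 0.169 to 0.654, and it called 8 genes (0.0569%) in all.

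**Figure D3:**
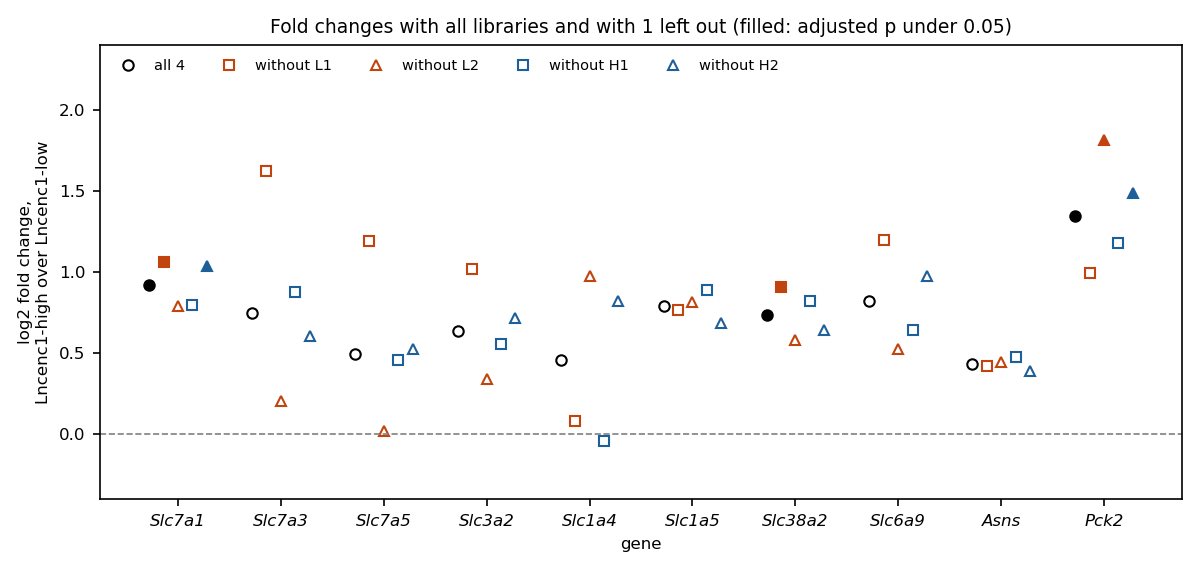
Log2 fold change (Lncenc1-high over Lncenc1-low) of each gene with all 4 libraries (circles, deposited) and in refits without 1 library (orange squares without L1, orange triangles without L2, blue squares without H1, blue triangles without H2); filled symbols have an adjusted p under 0.05. Asns and Slc1a5 hardly move, Slc7a3 and Slc7a5 spread most between the refits without L1 and without L2, and Slc1a4 reaches -0.040.

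Levels of different genes were compared as normalized reads per kilobase of the principal transcript. Asns had a mean of 5929 ± 73.9 per kilobase in the Lncenc1-low group and 8003 ± 342 in the Lncenc1-high group (SD, n = 2 each). In the Lncenc1-low group Slc3a2 (841 ± 274), Slc7a3 (629 ± 405), Slc38a2 (490.1 ± 78.8) and Slc7a5 (469 ± 255) followed per kilobase, and the libraries of these neighbours overlap. Next came Slc7a1 (184 ± 24.4), Slc1a5 (149.6 ± 3.46), Slc1a4 (103 ± 43.8), Pck2 (62.6 ± 24.5) and Slc6a9 (18.4 ± 5.98), where Slc1a4 and Pck2 overlap. In the Lncenc1-high group the order per kilobase was Slc3a2 (1310 ± 102), Slc7a3 (1056 ± 139.9), Slc38a2 (817 ± 71.3), Slc7a5 (659.7 ± 20.4), Slc7a1 (349 ± 40.6), Slc1a5 (259 ± 25.3), Pck2 (159 ± 23.9), Slc1a4 (141 ± 58.1) and Slc6a9 (32.6 ± 5.27). There only Pck2 and Slc1a4 overlap among neighbours, and the pair stands in the other order than in the Lncenc1-low group.

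Promoter windows from RefSeq (GRCm38.p6, 250 bases before to 50 after a start) were found for 7 of the 10 genes, and not for Slc7a3, Slc7a5 and Slc1a5. They were searched on both strands for TGATGNAA, the core of the amino acid response element that ATF4 binds together with C/EBP proteins. The core lies in a window of 3 of the 7 genes (3 of their 10 windows), and in 3.97% of all 32851 windows. The 30 bases around each match are shown in the gene's direction, since these genes include the one with the largest fold change and the most abundant one, with the match in capitals.
Asns, chr6:7693214-7693243, minus strand: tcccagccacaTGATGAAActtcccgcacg
Pck2, chr14:55540152-55540181, plus strand: agccttcaaagTTACATCAgtatcttacag
Slc1a4, chr11:20332699-20332728, minus strand: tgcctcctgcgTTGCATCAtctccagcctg

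The match begins 23 bases before the annotated start in Asns, 103 before it in Pck2 and 4 before it in Slc1a4, where it spans the start. In Asns it reads in the gene's direction, and in Pck2 and Slc1a4 it is on the opposite strand. These 3 genes include 1 that was called, and the other 2 called genes, Slc7a1 and Slc38a2, hold no match in these windows. No window of the 7 genes holds the longer form TGATGCAAT (0.192% of all windows) or the E-box CACGTG (7.15%). For comparison, the 250 bases before the start of Pck2, with its match in capitals, and of Slc7a1 are given in full. Slc7a1 has 2 annotated starts, neither with a match, and the bases are those before the more upstream one.
Pck2, chr14:55540016-55540265, plus strand: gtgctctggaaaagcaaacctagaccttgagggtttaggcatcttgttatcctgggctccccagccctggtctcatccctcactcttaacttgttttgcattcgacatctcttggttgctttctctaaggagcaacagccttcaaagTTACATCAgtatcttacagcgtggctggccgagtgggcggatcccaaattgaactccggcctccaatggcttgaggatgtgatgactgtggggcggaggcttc
Slc7a1, chr5:148399905-148400154, minus strand: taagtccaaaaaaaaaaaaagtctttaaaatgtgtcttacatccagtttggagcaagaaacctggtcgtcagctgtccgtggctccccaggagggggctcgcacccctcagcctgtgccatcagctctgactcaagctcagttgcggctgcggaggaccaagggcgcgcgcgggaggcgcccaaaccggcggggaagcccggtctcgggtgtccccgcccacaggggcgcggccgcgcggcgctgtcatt

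Other carriers of the plasma membrane lay on both sides. Of 35 listed, 31 were in the table and 18 were tested. Of these 18, DESeq2 in the authors' deposited table called 0 lower and 1 higher in the Lncenc1-low group, while 17 did not pass. Of all tested genes 0.505% were called lower and 1.02% higher in that group. The called one, Slc6a8, carries creatine rather than an amino acid. It had 2991 and 3207 normalized reads in L1 and L2, against 1684 and 2090 in H1 and H2, and the authors' deposited table has -0.72 ± 0.20 (SE) as its log2 fold change, with a DESeq2 adjusted p of 0.0340. The median log2 fold change of the 18 is -0.13 in that table, and 7 are positive. Slc6a8 was not called in a refit without any 1 of the 4 libraries (adjusted p = 0.0972 without L1, 0.447 without L2, 0.635 without H1 and 0.0622 without H2).

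Transporters of lysosomes, other inner membranes and mitochondria held no call. DESeq2 in the authors' deposited table called 0 of 21 tested, beside 1.53% of all tested genes in either direction. At an unadjusted p under 0.05 were 0, beside 3.54% of all tested genes lower and 5.28% higher in the Lncenc1-low group. Voom also called 0, beside 0.0569% of all genes. The median log2 fold change of the 21 in the authors' deposited table was 0.096. The smallest p in the authors' deposited table were those of Sfxn1, the mitochondrial serine carrier, at 0.32 ± 0.21 (SE), of Slc7a14 at -1.30 ± 1.04 (SE) and of the lysosomal arginine sensor Slc38a9 at -0.29 ± 0.29 (SE).

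Other enzymes of amino acid supply leaned toward the Lncenc1-high group. Of 22 tested, 1 fell and 1 rose in the Lncenc1-low group and 20 did not pass in the authors' deposited table. Of all tested genes 0.505% fell and 1.02% rose by that test. The median log2 fold change of the 22 in the authors' deposited table is 0.32, with 16 positive. Both Lncenc1-high libraries lay above both Lncenc1-low libraries for 12 of the 22, beside 20.6% of all tested genes. At an unadjusted p under 0.05 were 7 lower and 2 higher in the Lncenc1-low group, beside 3.54% and 5.28% of all tested genes. Pycr1, the mitochondrial enzyme that completes proline synthesis, had 251 and 203 normalized reads in L1 and L2, against 545 and 442 in H1 and H2. Its log2 fold change in the authors' deposited table is 1.12 ± 0.30 (SE), with a DESeq2 adjusted p of 0.0181. Aspg, which codes for an asparaginase, had 35.7 and 95.2 normalized reads in L1 and L2, against 3.59 and 10.04 in H1 and H2, from 29, 77, 7 and 8 reads. In the authors' deposited table the log2 fold change of Aspg is -3.36 ± 0.87 (SE), with a DESeq2 adjusted p of 0.0149. In the refits Pycr1 was called without L1 alone (adjusted p = 0.0391) and not without L2 (0.447), H1 (0.402) or H2 (0.0652), and Aspg was called without L1 (adjusted p = 0.0210) and H2 (0.0321) and not without L2 (0.613) or H1 (0.508).

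Regulators of the amino acid response held no call either. Of 16 tested, 0 had a DESeq2 adjusted p under 0.05 in the authors' deposited table, beside 1.53% of all tested genes in either direction. The median log2 fold change of the 16 in that table was 0.061. There 3 were at an unadjusted p under 0.05, all lower in the Lncenc1-low group, beside 3.54% of all tested genes in this direction. Voom called 0 of the 16 too, beside 0.0569% of all genes, with 2 at an unadjusted p under 0.05. The share of all genes at that voom p in either direction was not counted. In the authors' deposited table those 3 have log2 fold changes of 0.99 ± 0.32 (SE) for Trib3, a pseudokinase induced by and restraining ATF4, 0.61 ± 0.29 (SE) for Cebpg, a C/EBP partner of ATF4, and 0.44 ± 0.23 (SE) for Atf4. Trib3 had 196 and 236 normalized reads in L1 and L2, against 498 and 355 in H1 and H2. Its DESeq2 adjusted p of 0.0877 passes only the looser threshold of 0.1. Cebpg had 262 and 260 normalized reads in L1 and L2, against 419 and 376 in H1 and H2. Atf4 had 2630 and 3441 normalized reads in L1 and L2, against 3484 and 4777 in H1 and H2, so that L2 lay just under H1.

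**Figure D4:**
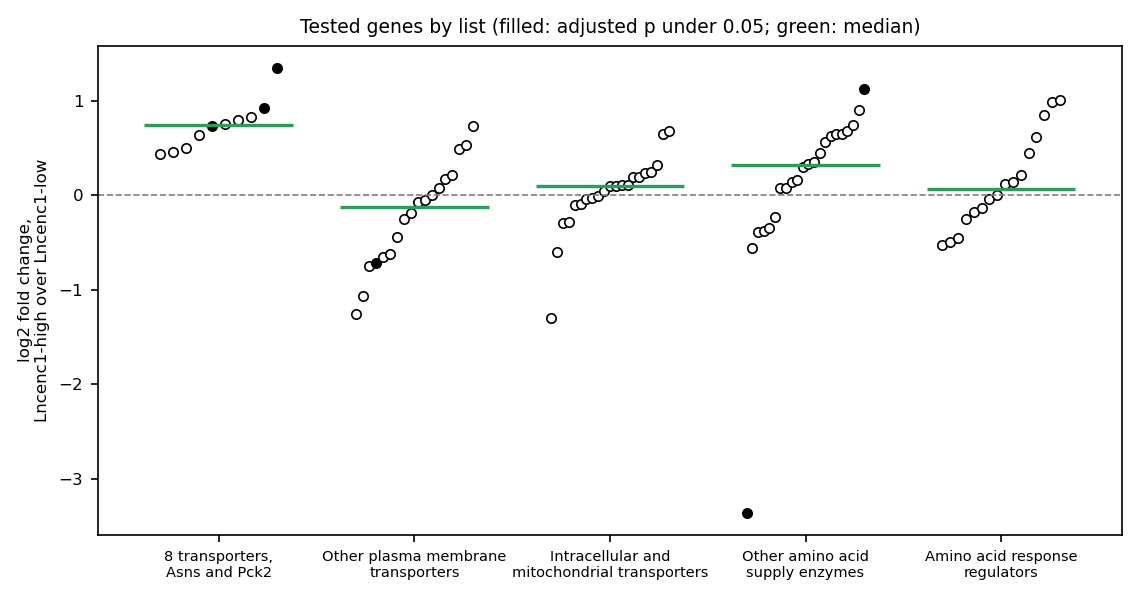
Deposited log2 fold change (Lncenc1-high over Lncenc1-low) of every tested gene in 5 lists, spread by rank within a list; filled circles have an adjusted p under 0.05 and green lines are medians. All 10 genes of the first list lie above 0, with a median of 0.74, while the 4 other lists lie on both sides, with medians from -0.13 to 0.32.

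By a fixed rule, the 5 genes nearest to the median profile of the 10 across the 4 libraries were Sars, coding for seryl-tRNA synthetase, the noncoding RNAs Neat1 and Snhg8, Cnpy2 and Fam162a. Likeness was the root mean square difference of log2 values centred per gene, from 0.0269 for Sars to 0.0385 for Fam162a among 9709 candidates, over only 4 libraries. Sars had 4197 and 3339 normalized reads in L1 and L2, against 6417 and 6157 in H1 and H2, and in the authors' deposited table its log2 fold change is 0.74 ± 0.19 (SE). Of the 10 themselves, Slc38a2 (0.0914) and Slc7a1 (0.118) lay nearest to the median profile, and Pck2 (0.534) and Slc1a4 (0.539) farthest from it.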

How the data were processed

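Per the labels' protocols, strand-specific libraries were made from total RNA after removal of ribosomal RNA. TopHat2, HTSeq, DESeq2 1.8.2 and build mm9 stand in the submitters' processing notes, with no order or settings. The sources used here give neither the annotation nor the strand setting of the counting. Per the file headers, the authors deposited for each gene a mean normalized read count (a signal), a log2 fold change with its standard error, a Wald statistic (a score), and a p-value with its adjusted p-value, and no column per library. The authors' adjusted p under 0.05 is the main test, DESeq2 was not run here, and an adjusted p without a tool's name below comes from the refit.

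Each library's reads were worked out from the means, since a mean adds 4 whole read numbers multiplied by 1 constant per library. The constants were read from recurring values of low genes, all combinations giving a mean to 15 digits were listed, and among several the one closest to the deposited fold change was taken. Reads were found for 19824 of 19840 genes, and the other 16 hold 11.5% of the summed means. A single combination was found for 17036 genes, and 2788 were chosen by fold change, which then is no check of them. Refitting gave the authors' log2 fold change to within 0.00001 for 11125 of 11261 tested genes with a single combination and reads in each group. Size factors were 0.811 for L1, 0.809 for L2, 1.95 for H1 and 0.797 for H2. A negative binomial Wald refit at the dispersions that the deposited errors imply, with Benjamini-Hochberg adjustment, gave the fits without 1 library, where the lone library is assumed to vary like the rest, and the fit with library totals. Limma 3.58.1 voom was another alternative. The recovery, the refit with all 4 libraries and voom were tested on simulated data, and the refits without 1 library and with library totals were not. The simulation drew on genes with lower deposited means than Asns (14044), Lncenc1 (4474) and Slc38a2 (3045), so the recovery was not tested at such abundance. Its fold changes came from the same fit that serves to choose among combinations. Gene symbols matched 19707 identifiers. The members and lists were chosen with earlier results of these data known. Named genes are the members, the called genes of a list or else its 3 with the smallest p, and the 5 nearest in profile with a mean of at least 100 and a pseudocount of 1. Transcript lengths are GENCODE's for another build than the authors', so no coordinates but those of the printed RefSeq sequences are given. Protein sequences were not analysed here.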

Additional observations from a re-analysis of the deposited data

How the results depend on the processing

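Of the 10 genes, where the authors' table calls 3, limma voom called 0 (7 at an unadjusted p under 0.05), and refits without 1 library called 0 to 2. With library totals, with no filter on low counts and at an adjusted p under 0.1, 3, 3 and 4 were called. At an adjusted p under 0.1 this stands beside 0.718% of tested genes in this direction, and for the other settings the share was not counted. The library totals are sums of recovered reads and leave out the 16 genes without them. The log2 fold change was positive in all 10 voom values and in 39 of 40 refits without 1 library, which share libraries with one another, the exception being Slc1a4 at -0.040 without H1, whose fits without 1 library reached 0.97; the cause was not tested. Library totals shifted the median of all genes by -0.029 on the log2 scale. Lncenc1 stayed called in all 7 alternatives. Of the other plasma membrane transporters, voom called 0 (3 at an unadjusted p under 0.05). Of the other supply enzymes voom called 0 (9 at an unadjusted p under 0.05). Voom called 0.0569% of all genes. The 3 and 9 take both directions, and the share of all genes at that voom p in either direction was not counted. With TGATGCAAT in place of the core, 0 of 7 genes held a match. The fits without 1 library kept dispersions estimated from all 4, so a lost call can come from fewer libraries. No paired analysis was possible because the recovered libraries cannot be tied to the samples or to their replicate numbers. Depth limits genes of few reads, such as Slc7a14 with 14 and 27 reads in L1 and L2 against 14 and 11 in H1 and H2.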
